A study of Mus musculus with 6 samples.

Results

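De novo lipogenesis is the route by which liver turns carbohydrate into fatty acids, and 9 genes of it were followed in mouse liver: Pklr, Acly, Acss2, Me1, Acaca, Acacb, Fasn, Thrsp and Scd1. They were chosen by name, with earlier results of these data known, from the entry of glucose carbon to the first desaturation. All 9 are present among the 24341 gene symbols of the liver expression table. The table has 1 column for each of 6 livers from C57BL/6 mice fed regular chow. In 3 livers, labelled knockout, the genotype is Prkciflox/floxAlbCre. The other 3 are controls of genotype Prkciflox/flox, so both groups carry the loxP-flanked Prkci alleles. The groups differ by a Cre recombinase under the albumin promoter, which is active in hepatocytes. The mice were 30 weeks old per the sample labels and 28 weeks old per the design text. The replicates are numbered 1 to 3 in each group and are not stated to be separate animals, so a p-value here measures spread among these livers only, which may be technical.

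In this pathway, liver pyruvate kinase closes glycolysis, mitochondria export citrate, and the citrate is split in the cytosol to acetyl-CoA. Acetyl-CoA carboxylase makes malonyl-CoA from it, fatty acid synthase builds palmitate at the expense of NADPH, and stearoyl-CoA desaturase puts in the first double bond. The genes are known to be switched on together after a carbohydrate meal by the insulin-responsive factor SREBP1 and the glucose-responsive factor ChREBP, and to be switched off in fasting. Prkci encodes the atypical protein kinase C lambda/iota, which has been described in mouse liver as a step between insulin and Srebf1.

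Promoter sequence was available for 8 of the 9 genes (RefSeq, GRCm38.p6). SREBP1 is known to act at lipogenic promoters together with NF-Y, the factor that binds CCAAT, so that motif was searched on both strands in the 250 bases before each start site. Pklr and Me1 have 2 annotated starts each, which makes 10 windows for the 8 genes. The motif was in 6 of these 10 windows, 1 in each of 6 genes, and in 33.8% of the 32851 windows of the same length over all genes. The E-box CACGTG, the core of the element that ChREBP binds in pairs, was in 0 of 10 windows, against 6.02% of all windows. A sterol regulatory element of the letters TCACCCCAC was also in 0 of 10 windows, against 0.496%, and the GC box GGGCGG was in 3 of 10 (Acly, Acss2 and Me1), against 32.7%. A match is a description of letters and says nothing of binding. The Fasn start carried the motif most densely and is shown over the 120 bases before it. For the other 5 genes each site is shown with 10 bases on either side. Capitals mark CCAAT or its reverse complement ATTGG, and in the run CCAATTGG of Fasn the motifs of both strands overlap.
Fasn (chr11:120824548-120824667, minus strand): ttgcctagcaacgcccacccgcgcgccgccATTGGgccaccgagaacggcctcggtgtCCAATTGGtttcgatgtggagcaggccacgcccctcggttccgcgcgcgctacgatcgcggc
Thrsp, distal site (chr7:97417615-97417639, minus strand): aaacgctgggATTGGctcaaaacag
Thrsp, proximal site (chr7:97417588-97417612, minus strand): ctgtgttgctCCAATggttgggctt
Acss2 (chr2:155517960-155517984, plus strand): cctacccactATTGGatgcctagag
Acacb (chr5:114165421-114165445, plus strand): acaagggaccCCAATagccttgccc
Pklr (chr3:89136496-89136520, plus strand): caaggcttccATTGGcaagagagat
Me1 (chr9:86687471-86687495, minus strand): ctcacatggtATTGGtattttgcac
The 2 Thrsp sites lie at -79 to -75 and -52 to -48 from the start, the Acss2 site at -73 to -69, the Acacb site at -87 to -83, the Pklr site at -117 to -113 and the Me1 site at -208 to -204. For Pklr and Me1 these are counted from the inner of the 2 starts, which lies inside the GENCODE gene span, and the window of the outer start held no CCAAT. The RefSeq starts used for Acss2, Acacb and Thrsp also lie inside their GENCODE spans.

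All 9 genes had a lower mean in the knockout-labelled livers than in the controls, and none of the differences passed the test against the spread between livers. Expression is given as FPKM, reads scaled to transcript length and to the library's mapped reads, deposited by the authors. Differences were tested with limma on log2(FPKM + 1), knockout minus control, over the 10963 genes that reached 1 FPKM in 3 or more libraries, with Benjamini-Hochberg adjustment over these genes and a threshold of 0.05. All 9 passed the filter. On this scale 0 of 9 passed lower, where 0.0182% of tested genes did, and 0 passed higher, where 0.00912% did. The adjusted p ran from 0.514 (Thrsp) to 0.897 (Acacb). At an unadjusted p under 0.05 the counts were also 0 of 9, against 3.59% of tested genes lower. The mean was lower for 9 of 9, against 43.9% of tested genes, and the groups did not overlap for 0 of 9, against 5.56% lower. The 9 genes were chosen with earlier results of these data known. They also moved together from liver to liver, so these counts are description only. The median log2 difference of the 9 was -1.02, beside 0.04 over all tested genes.

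The livers themselves were read to an estimated 14790000 to 17620000 reads each, judged from the steps between low values. Prkci, the targeted gene (chromosome 3, 30995747 to 31052959), was at 5.70, 5.26 and 4.42 FPKM in the knockout-labelled livers and at 5.57, 3.65 and 4.44 FPKM in the controls, a log2 difference of 0.15 (SE 0.17, limma adjusted p = 0.813). The groups overlapped. The value covers the whole gene and the deleted part is not separated from the rest, so it does not check the labels. Of 15 hepatocyte markers 14 are in the table and all 14 were tested; their summed level was 40085 to 50986 FPKM in the knockout-labelled livers and 45292 to 66708 FPKM in the controls. Of the 14, 11 had a lower and 3 a higher mean, 0 passed, and the median log2 difference was -0.33. Ttr, Apoc3, Ahsg, Fgb and Otc, 5 of 14, lay below every control in all 3 knockout-labelled livers, against 5.56% of tested genes. Hpx, 1 of 14, lay above every control, against 10.7%. An unadjusted limma p under 0.05 was reached by 3 of 14 (Ttr, Fgb and Otc), all lower, against 3.59% of tested genes lower. The part of these marker differences in the levels of the 9 enzymes was not tested. Alb, which hepatocytes make in bulk, was listed at 0 in every library, and a 0 in this table may thus be an estimate that failed. Among 10 adipocyte markers, Lep, Plin1 and Cfd were also listed at 0 throughout, and 4 were tested. A lower mean was seen in 1 of the 4 and a higher mean in 3, and 0 passed. Pnpla2 lay above every control in all 3 knockout-labelled livers and Adrb3 below every control, as 10.7% and 5.56% of tested genes did. In a whole liver, fewer cells of a type and less RNA per cell cannot be told apart.

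**Figure D1:**
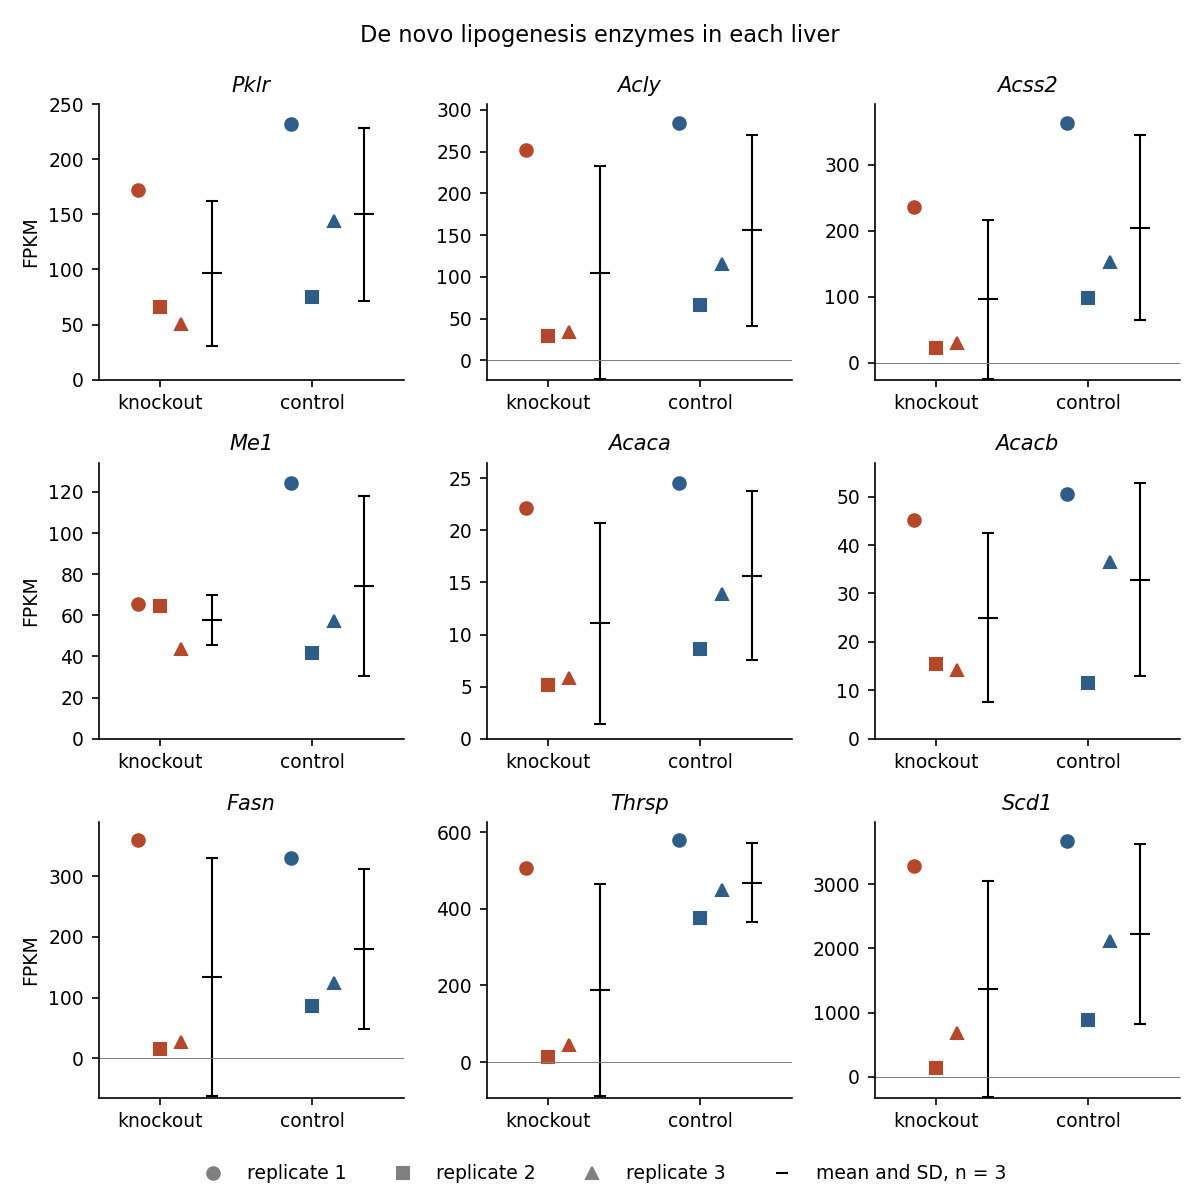
FPKM of the 9 lipogenesis genes in each liver, knockout-labelled livers on the left and controls on the right of each panel, with the mean and SD of 3 livers beside the points. Knockout replicate 1 stood at 3288 FPKM for Scd1 and 360.5 FPKM for Fasn, far above replicates 2 and 3 of its group, and controls also ranged widely.

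Pklr (chromosome 3, 89136142 to 89146784, plus strand) encodes the pyruvate kinase of liver and red cells, the last step of glycolysis. Its level was 172, 66.1 and 50.9 FPKM in the knockout-labelled livers and 232, 74.97 and 144 FPKM in the controls. Knockout replicates 2 and 3 lay below every control and replicate 1 lay above 2 of them. The log2 difference was -0.70 (SE 0.56, 95% interval -2.05 to 0.66, limma adjusted p = 0.727). Hcn3 overlaps Pklr on the other strand, and the sources used here do not say whether counting used the strand.

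Acly and Acss2 supply cytosolic acetyl-CoA, Acly by splitting citrate and Acss2 from acetate. Acly (chromosome 11, 100476353 to 100528000, minus strand) was at 252, 29.0 and 34.4 FPKM in the knockout-labelled livers and at 284, 66.5 and 116 FPKM in the controls. The log2 difference of Acly came to -1.02 (SE 0.91, 95% interval -3.22 to 1.17, limma adjusted p = 0.750). Acss2 (chromosome 2, 155517948 to 155585724, plus strand) was at 235, 22.7 and 30.4 FPKM in the knockout-labelled livers and at 363, 97.7 and 153 FPKM in the controls. For both genes replicates 2 and 3 of the knockout group were below all controls, while replicate 1 was below control replicate 1 only. The Acss2 log2 difference was -1.66 (SE 0.93, 95% interval -3.90 to 0.58, limma adjusted p = 0.603). Several annotated genes overlap Acss2, among them Ggt7, Gss and Acss2os on the other strand, so its value is uncertain to that extent.

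Me1 encodes cytosolic malic enzyme, a source of NADPH for fatty acid synthesis, and it varied least of the 9 among the knockout-labelled livers. Me1 (chromosome 9, 86581371 to 86695953, minus strand) was at 65.4, 64.3 and 43.9 FPKM there and at 124, 41.9 and 57.3 FPKM in the controls. The group means were 57.9 ± 12.1 FPKM in the knockout-labelled livers and 74.4 ± 43.7 FPKM in the controls (SD, n = 3 each). Its highest value was 1.49 times its lowest in the knockout-labelled livers. The same ratio was 36.4 for Thrsp. The Me1 log2 difference was -0.23 (SE 0.40, 95% interval -1.19 to 0.73, limma adjusted p = 0.892). It was positive without control replicate 1 and without replicate 1 of both groups, and reached 0.21 there.

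Acaca and Acacb encode the acetyl-CoA carboxylases, a cytosolic form whose malonyl-CoA feeds synthesis and a form at the mitochondrial surface whose malonyl-CoA restrains fatty acid import. Acaca (chromosome 11, 84129672 to 84401651, plus strand) was at 22.2, 5.18 and 5.84 FPKM in the knockout-labelled livers and at 24.5, 8.59 and 13.9 FPKM in the controls. The log2 difference of Acaca came to -0.63 (SE 0.59, 95% interval -2.04 to 0.77, limma adjusted p = 0.756), and it was the lowest of the 9 genes in each of the 6 livers. Acacb (chromosome 5, 114146535 to 114250761, plus strand) was at 45.1, 15.5 and 14.3 FPKM in the knockout-labelled livers and at 50.6, 11.4 and 36.6 FPKM in the controls. Control replicate 2 had the lowest Acacb of all 6 livers, which sets this gene and Me1 apart from the other 7. The Acacb log2 difference was -0.35 (SE 0.64, 95% interval -1.89 to 1.19, limma adjusted p = 0.897). Acacb also turned positive when livers were left out, to at most 0.13.

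Fasn and Thrsp come next in the pathway; Fasn encodes fatty acid synthase and Thrsp encodes Spot 14, a small nuclear and cytosolic protein known to be induced with lipogenesis. Fasn (chromosome 11, 120805846 to 120824547, minus strand) was at 360.5, 15.6 and 26.5 FPKM in the knockout-labelled livers and at 331, 86.4 and 123 FPKM in the controls. Fasn was the single member for which a knockout-labelled liver exceeded the highest control. The means were 134 ± 196 FPKM in the knockout-labelled livers and 180.1 ± 132 FPKM in the controls (SD, n = 3 each), with a log2 difference of -1.48 (SE 1.17, 95% interval -4.30 to 1.34, limma adjusted p = 0.719).

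Thrsp (chromosome 7, 97412938 to 97417730, minus strand) showed the widest gap between the groups and the tightest controls. Its level was 506, 13.9 and 43.4 FPKM in the knockout-labelled livers and 580.3, 376 and 449.5 FPKM in the controls. Replicates 2 and 3 of the knockout group lay far below every control, and replicate 1 lay inside the control range. The means were 188 ± 276 FPKM in the knockout-labelled livers and 469 ± 104 FPKM in the controls (SD, n = 3 each). The log2 difference was -2.73 (SE 1.19, 95% interval -5.60 to 0.13), with an unadjusted p of 0.0584 and a limma adjusted p of 0.514. The lowest of these values rested on an estimated 254 reads, whose counting error of 6.28% is small beside the spread between livers.

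Scd1 encodes stearoyl-CoA desaturase, which makes oleate and palmitoleate, and it was the highest of the 9 in each of the 6 livers. Scd1 (chromosome 19, 44394455 to 44407879, minus strand) was at 3288, 137 and 688 FPKM in the knockout-labelled livers and at 3676, 887 and 2116 FPKM in the controls. The log2 difference was -1.49 (SE 1.15, 95% interval -4.24 to 1.26, limma adjusted p = 0.710). Scd1 made up 66.5, 37.1 and 73.4% of the summed FPKM of the 9 genes in the knockout-labelled livers and 64.9, 53.8 and 65.9% in the controls. That sum was 4947, 369 and 938 FPKM in the knockout-labelled livers and 5665, 1651 and 3209 FPKM in the controls. As a share of all FPKM in the library it was 0.950, 0.0687 and 0.173% in the knockout-labelled livers and 1.09, 0.286 and 0.615% in the controls, so the livers of each group differed among themselves by several fold.

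The 9 genes moved together from liver to liver within each group. Among the knockout-labelled livers, replicate 1 was highest for 9 of 9 genes, and replicate 2 was lowest for 6 and replicate 3 for the other 3. Among the controls, replicate 1 was highest and replicate 2 lowest for 9 of 9. The median SD on the log2 scale was 1.71 for the 9 genes in the knockout-labelled livers, against 0.21 over all tested genes, and 0.96 in the controls, against 0.19 over all tested genes. Me1 and Thrsp were each quieter than the rest in 1 group only. The SD of Me1 stood at percentile 70.1 of all tested genes in the knockout-labelled livers. That of Thrsp stood at percentile 76.8 in the controls. The 8 other than Me1 stood between percentiles 96.0 and 99.8 in the knockout-labelled livers, with Thrsp the highest. In the controls, the 8 other than Thrsp stood between 95.7 and 98.8. The order of levels also shifted. Thrsp was at place 2 after Scd1 in knockout replicate 1 and in all 3 controls, but at place 8 in knockout replicate 2 and place 4 in knockout replicate 3, in both of which Pklr was at place 2 and Me1 at place 3.

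**Figure D2:**
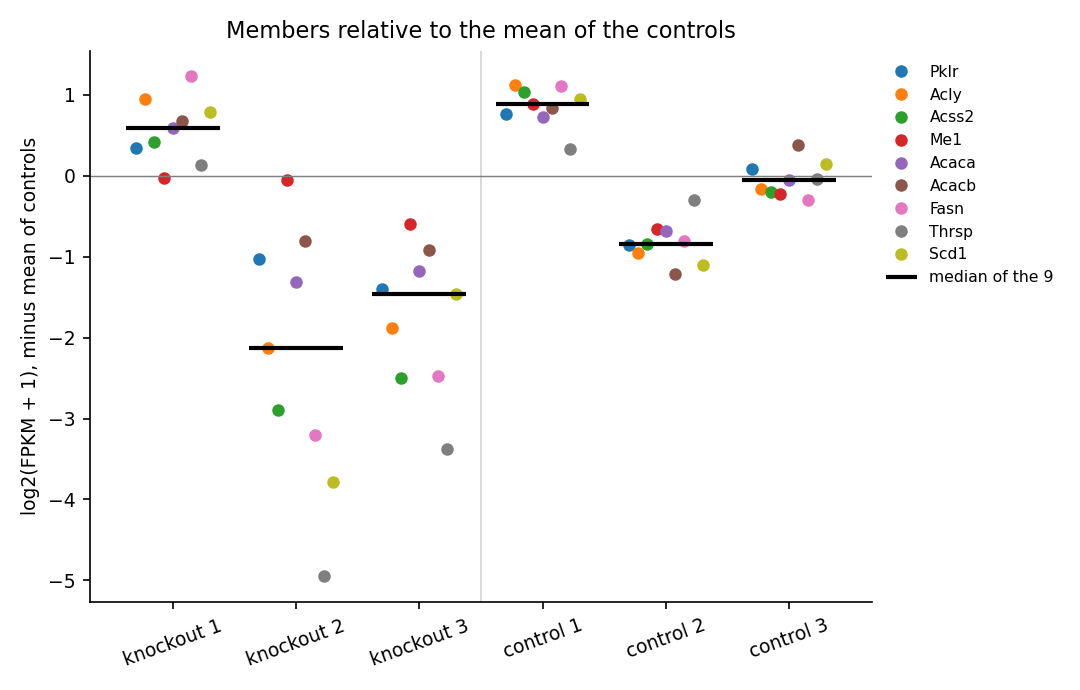
Level of each of the 9 genes in each liver as log2(FPKM + 1) minus the mean of the 3 controls, with knockout-labelled livers on the left; the black bar is the median of the 9. The medians were 0.59, -2.13 and -1.47 in the knockout-labelled livers and 0.88, -0.84 and -0.05 in the controls.

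The replicate numbers were taken as pairing the livers, and this was read from these same data. Over all tested genes, livers of the same number deviated from their group means in the same direction (correlations of 0.477, 0.279 and 0.283). Livers of different number gave correlations of -0.384 to 0.120, the highest for knockout replicate 3 with control replicate 2. Deviations of 3 livers in a group sum to 0, so these correlations are not independent of each other. In the livers numbered 1, 8 of 9 genes were lower in the knockout than in the control, with a median ratio of 0.886 and a range of 0.527 for Me1 to 1.09 for Fasn. In those numbered 2, 7 of 9 were lower, with a median ratio of 0.436. Thrsp was at 0.0370 of its control there, and Acacb (1.36) and Me1 (1.54) were above theirs. In those numbered 3, 9 of 9 were lower, with a median ratio of 0.325 and a range of 0.0966 for Thrsp to 0.766 for Me1. Over all tested genes the share lower was 38.2, 47.8 and 49.9% in pairs 1, 2 and 3. Acaca, Acly, Acss2, Pklr, Scd1 and Thrsp were lower in all 3 pairs, 6 of 9 genes against 16.8% of tested genes. With the replicate number as a block in the limma fit, 6 of 9 genes had an unadjusted p under 0.05, against 0 of 9 without the block; all 6 were lower, which with the block held for 6.07% of tested genes (10.1% were higher). Because the block was chosen from these same values, its unadjusted p-values can be too small, and the 6 against 0 is description only. With the block none of the 9 passed after adjustment (limma adjusted p 0.211 to 0.736), where 0.0182% of tested genes passed lower and 0.00912% higher.

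Knockout replicate 1 stood apart from the other 2 livers of its group. It is singled out here on the levels of these same genes, so p-values of the fit without it are description only. For 7 of 9 genes, all but Acacb and Me1, at least 2 knockout-labelled livers lay below the lowest control, which held for 23.4% of tested genes, and for each of the 7 these were replicates 2 and 3. Without knockout replicate 1, Thrsp passed at a log2 difference of -4.17 (limma adjusted p = 0.0250), 1 of 9 genes against 0.684% of tested genes lower and 0.711% higher. Of the others, Acss2 (limma adjusted p = 0.0757) and Fasn (0.0812) came nearest and Me1 (0.760) lay farthest. The median difference of the 9 was then -2.01. Over the whole table the number of genes that passed went to 153, against 3 with all 6 livers. Left out the other way, the median was -0.47 without knockout replicate 2, -0.59 without knockout replicate 3 and -0.46 without control replicate 1.

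**Figure D3:**
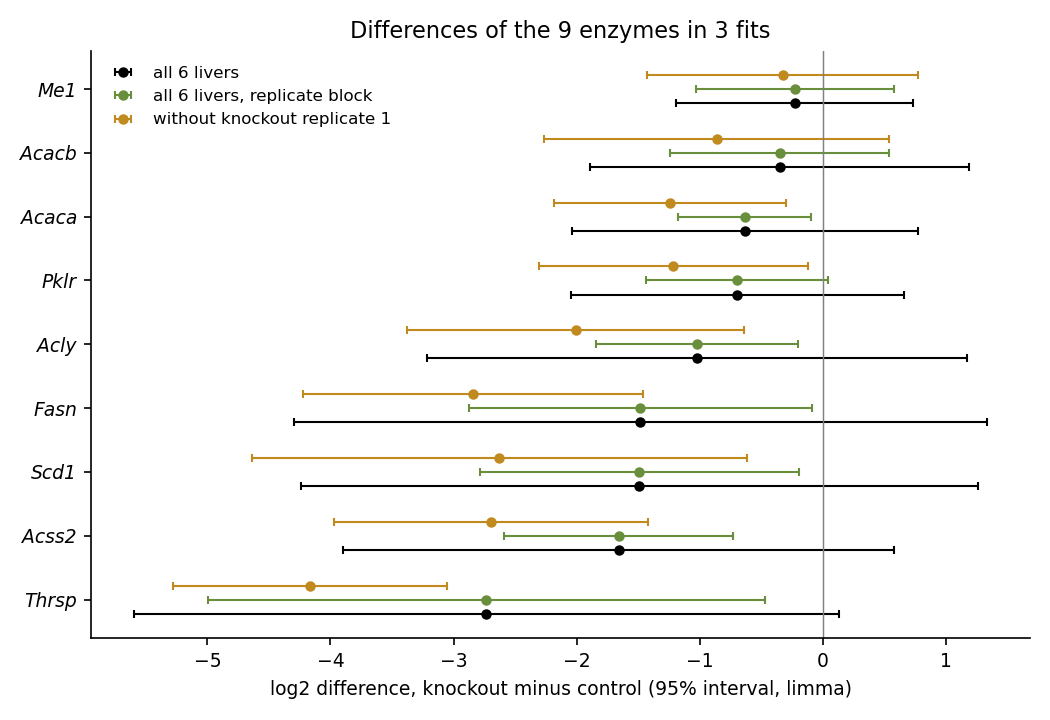
Log2 difference, knockout minus control, with its 95% interval for each of the 9 genes in 3 limma fits: all 6 livers, all 6 livers with the replicate number as a block, and without knockout replicate 1. With all 6 livers and no block every interval spans 0, and that of Thrsp runs from -5.60 to 0.13. The block and the left-out liver were chosen from these same data, so the intervals of those fits are description only.

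Ratios of enzymes within a liver asked whether the pathway changed in proportion. For 3 ratios the exact two-sided permutation test of 3 livers against 3 cannot give a p under 0.1. Acacb stood to Acaca at 2.03, 3.00 and 2.44 in the knockout-labelled livers and at 2.07, 1.33 and 2.63 in the controls (log2 difference 0.35, exact permutation p = 0.5, adjusted over the 3 ratios 0.75). Without control replicate 2 the difference of this ratio was 0.077. Scd1 stood to Fasn at 9.12, 8.77 and 25.9 in the knockout-labelled livers and at 11.1, 10.3 and 17.1 in the controls (log2 difference 0.03, exact permutation p = 1, adjusted 1). Neither ratio separated the groups. Me1 stood to Fasn at 0.181, 4.12 and 1.65 in the knockout-labelled livers and at 0.376, 0.485 and 0.464 in the controls (log2 difference 1.29, exact permutation p = 0.4, adjusted 0.75). That difference was 2.57 without knockout replicate 1 and 0.32 without knockout replicate 2. In knockout replicates 2 and 3 Me1 therefore exceeded Fasn, while in knockout replicate 1 and every control Fasn exceeded Me1.

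SREBP1 and ChREBP govern the pathway, and the genes of both had lower means in the knockout-labelled livers. Srebf1 (chromosome 11, 60199089 to 60222581), which encodes SREBP1, was at 93.0, 5.00 and 9.42 FPKM in the knockout-labelled livers and at 93.4, 99.4 and 87.3 FPKM in the controls. The difference was -2.38 on the log2 scale (SE 0.96, limma adjusted p = 0.502). Its 3 controls agreed within a ratio of 1.14 from highest to lowest, while the 9 enzymes of the same controls ranged from 1.54 (Thrsp) to 4.44 (Acacb). Srebf1 was thus not lower in control replicate 2, where all 9 enzymes were at their control minimum. Without knockout replicate 1 Srebf1 passed (log2 difference -3.57, limma adjusted p = 0.0121), where 0.684% of tested genes passed lower. That liver was singled out on values of this kind, so this pass is description only. Mlxipl (chromosome 5, 135089890 to 135138382), which encodes ChREBP, was at 104, 61.9 and 76.4 FPKM in the knockout-labelled livers and at 109.6, 121 and 155 FPKM in the controls. The 2 groups of Mlxipl values did not overlap, yet the difference did not pass after adjustment (log2 difference -0.68, SE 0.23, unadjusted p = 0.0224, limma adjusted p = 0.447). Non-overlap with the knockout livers below held for 5.56% of tested genes.

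Over all 19 regulators of lipogenesis that were tested, 12 had a lower and 7 a higher mean and 0 passed, with a median log2 difference of -0.09. The INSIG proteins hold SREBP in the endoplasmic reticulum, and their genes differed in opposite directions. Insig1 was at 170.1, 17.3 and 24.9 FPKM in the knockout-labelled livers and at 217, 260.5 and 79.7 FPKM in the controls (log2 difference -1.94, limma adjusted p = 0.537). Insig2 was at 119.96, 289.99 and 152 FPKM in the knockout-labelled livers and at 54.9, 61.8 and 71.5 FPKM in the controls, with no overlap (log2 difference 1.47, SE 0.33, limma adjusted p = 0.317). Non-overlap with the knockout livers above held for 10.7% of tested genes. Rxra, a nuclear receptor partner, averaged 98.9 ± 15.4 FPKM in the knockout-labelled livers and 90.8 ± 20.4 FPKM in the controls (SD, n = 3 each).

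**Figure D4:**
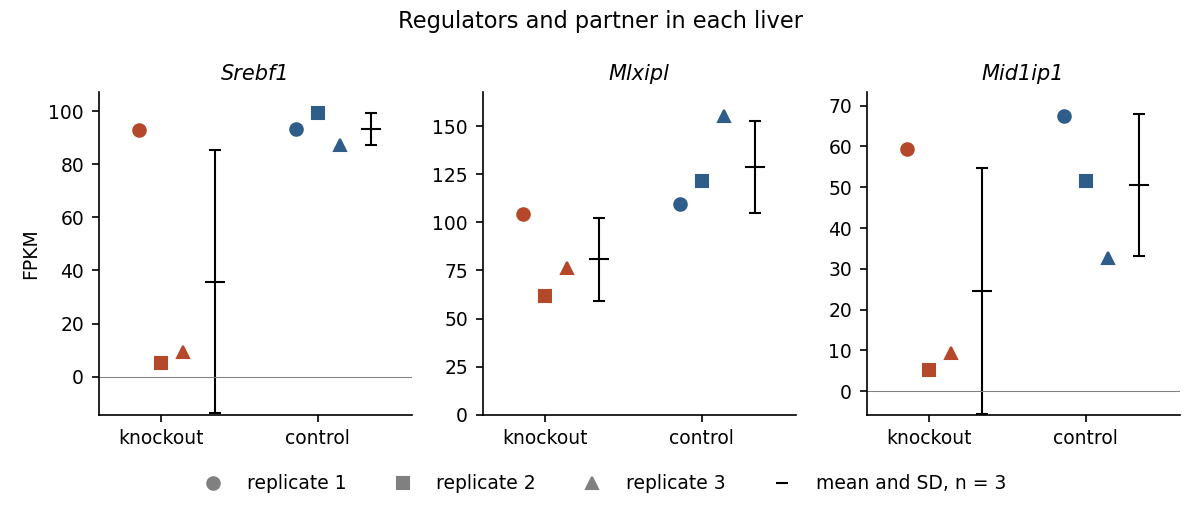
FPKM of Srebf1, Mlxipl and Mid1ip1 in each liver, knockout-labelled livers left of the controls, with mean and SD of 3 livers. Knockout replicates 2 and 3 lay below every control for all 3 genes, and the 3 controls of Srebf1 lay close together at 87.3 to 99.4 FPKM.

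Mid1ip1, which encodes the Spot 14 relative MIG12 that promotes polymerization of acetyl-CoA carboxylase, was at 59.4, 5.24 and 9.28 FPKM in the knockout-labelled livers and at 67.4, 51.5 and 32.6 FPKM in the controls. Its difference came to -1.65 on that scale (SE 0.82, limma adjusted p = 0.565), and it passed without knockout replicate 1 (-2.62, limma adjusted p = 0.0372). In that fit 0.684% of tested genes passed lower, and as for Srebf1 the pass is description only. Of 11 tested genes that act on acetyl-CoA carboxylase, its cofactor biotin or its partners, 6 had a lower and 5 a higher mean and 0 passed (median log2 difference -0.12). Mlycd, which encodes malonyl-CoA decarboxylase, averaged 75.3 ± 23.0 FPKM in the knockout-labelled livers and 58.8 ± 10.9 FPKM in the controls (SD, n = 3 each). Btd, which recycles biotin, was at 45.8, 60.8 and 53.1 FPKM in the knockout-labelled livers and at 48.7, 48.2 and 53.1 FPKM in the controls. Both genes overlapped between the groups. Aacs, a cytosolic acetoacetyl-CoA synthetase, was at 53.1, 5.88 and 6.97 FPKM in the knockout-labelled livers and at 60.2, 27.5 and 18.4 FPKM in the controls, with replicates 2 and 3 of the knockout group again below every control (log2 difference -1.17, limma adjusted p = 0.687).

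The genes that bring carbon and NADPH to the pathway were more mixed: of 23 tested, 14 had a lower and 9 a higher mean and 0 passed, with a median log2 difference of -0.03. Khk, which phosphorylates fructose, was among those of highest level and averaged 341 ± 82.0 FPKM in the knockout-labelled livers and 421 ± 67.5 FPKM in the controls (SD, n = 3 each). Mdh1 (280 ± 45.5 FPKM in the knockout-labelled livers, 328 ± 18.7 FPKM in the controls) and Mpc2 (284 ± 34.8 FPKM in the knockout-labelled livers, 319 ± 58.0 FPKM in the controls) overlapped between the groups and did not pass (SD, n = 3 each, limma adjusted p = 0.662 and 0.816). G6pdx, Pgd and Idh1 are added here because they hold steps next to the pathway, and they were chosen after their values were seen. G6pdx, the entry of the pentose phosphate pathway, was at 7.15, 1.39 and 2.38 FPKM in the knockout-labelled livers and at 22.1, 1.31 and 3.31 FPKM in the controls. Pgd, the next NADPH-forming step, was at 67.5, 21.6 and 18.7 FPKM in the knockout-labelled livers and at 53.1, 20.2 and 26.8 FPKM in the controls. Both were high in the livers numbered 1 of either group. Idh1, cytosolic isocitrate dehydrogenase, was at 219.5, 117 and 139 FPKM in the knockout-labelled livers and at 264, 268 and 240.2 FPKM in the controls, without overlap (log2 difference -0.74, SE 0.24, limma adjusted p = 0.429). Such non-overlap, with the knockout livers below, held for 5.56% of tested genes.

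Genes whose pattern over the 6 livers lay nearest the median of the 9 enzymes were sought among the other 10954 tested genes, by the root mean square distance on the log2 scale after centring on the controls. The nearest was Elovl6 (distance 0.288), which encodes the elongase of palmitate to stearate. Elovl6 was at 74.6, 10.04 and 12.3 FPKM in the knockout-labelled livers and at 74.9, 15.4 and 41.5 FPKM in the controls. Bhlhe40, a transcriptional repressor, followed (distance 0.296), with 99.4, 22.6 and 30.4 FPKM in the knockout-labelled livers and 115, 43.6 and 61.9 FPKM in the controls. The next were Gm11437 (0.393), Zbp1 (0.398), Stard4 (0.408), C330021F23Rik (0.426), Tgm1 (0.433) and Pmvk (0.438), where the median over all genes was 1.17. Gm11437 lies inside Acaca on the opposite strand (chromosome 11, 84148351 to 84167476), so reads of the 2 genes may not have been separated. Among the 9 enzymes themselves, Acly lay nearest the median of the others (0.290) and Thrsp (1.59) and Me1 (1.13) farthest.

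Genes of fatty acid oxidation ran the other way in knockout replicates 2 and 3. In control replicates 1 to 3 the median of the 9 enzymes, as log2 relative to the control mean, was 0.88, -0.84 and -0.05. That of the oxidation genes was -0.33, -0.04 and 0.43, so they did not mirror the enzymes there. Of 24 tested, 23 had a higher mean in the knockout-labelled livers, against 56.1% of tested genes, and 1 a lower mean; 0 passed, 5 had an unadjusted p under 0.05 with a higher mean, against 6.34% of tested genes, and the median log2 difference was 0.75. Their summed level was 3719, 18761 and 17991 FPKM in the knockout-labelled livers and 3398, 4489 and 6361 FPKM in the controls, so knockout replicate 1 was again with the controls. Cyp4a14, a fatty acid hydroxylase, was at 82.3, 5040 and 3908 FPKM in the knockout-labelled livers and at 35.1, 285 and 370.2 FPKM in the controls (limma adjusted p = 0.615). Cyp4a10 of the same family averaged 1685 ± 1378 FPKM in the knockout-labelled livers and 241 ± 200 FPKM in the controls. These 2 genes have close paralogs, between which reads may have been split. Acaa1b, a peroxisomal thiolase with the near copy Acaa1a, was at 540.5, 1594 and 1894 FPKM in the knockout-labelled livers and at 219, 363 and 717 FPKM in the controls (limma adjusted p = 0.472).

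Genes known to rise in fasting liver, 15 in all, had a higher mean in 12 and a lower mean in 3, with 0 passing and a median log2 difference of 0.76. Their summed level was 3076, 7946 and 6218 FPKM in the knockout-labelled livers and 2622, 2999.6 and 3300.2 FPKM in the controls. Pck1, the entry of gluconeogenesis, was at 898, 2764 and 2064 FPKM in the knockout-labelled livers and at 472, 1016 and 793 FPKM in the controls (limma adjusted p = 0.482). Tat, tyrosine aminotransferase, averaged 642 ± 87.2 FPKM in the knockout-labelled livers and 543 ± 65.0 FPKM in the controls. G6pc, glucose-6-phosphatase, was at 451, 604 and 290 FPKM in the knockout-labelled livers and at 272, 52.0 and 210 FPKM in the controls, without overlap (limma adjusted p = 0.502). Such non-overlap, with the knockout livers above, held for 10.7% of tested genes. The sources used here state neither feeding state nor hour of collection, and the part of feeding in the level of the 9 enzymes was not tested. Of 16 clock genes, 12 had a lower and 4 a higher mean and 0 passed (median log2 difference -0.26). Dbp was at 37.5, 7.62 and 49.2 FPKM in the knockout-labelled livers and at 34.3, 84.8 and 88.1 FPKM in the controls. Nr1d1 (39.6 ± 12.8 FPKM in the knockout-labelled livers, 46.4 ± 11.9 FPKM in the controls) and Tef (30.6 ± 12.4 FPKM in the knockout-labelled livers, 48.7 ± 18.7 FPKM in the controls) overlapped between the groups (SD, n = 3 each). Nr1d2 did not, at 17.7 ± 3.56 FPKM in the knockout-labelled livers and 25.6 ± 2.64 FPKM in the controls (SD, n = 3 each), with a limma adjusted p of 0.429. Such non-overlap, with the knockout livers below, held for 5.56% of tested genes.

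**Figure D5:**
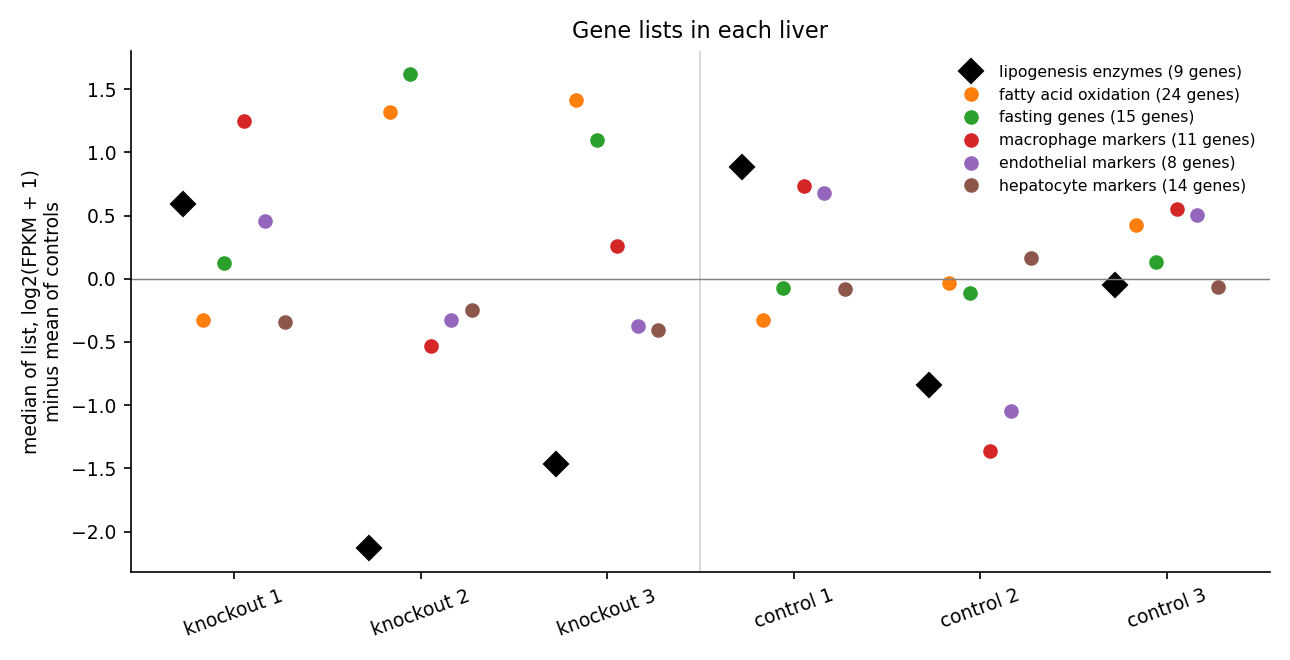
Median of each gene list in each liver, as log2(FPKM + 1) minus the mean of the controls, with knockout-labelled livers on the left. In knockout replicates 2 and 3 the lipogenesis enzymes stood at -2.13 and -1.47 while fatty acid oxidation genes stood at 1.32 and 1.41, and in control replicate 2 the macrophage and endothelial markers were also at their lowest.

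Markers of other liver cells varied with the livers too. Of 11 macrophage markers, 9 had a higher and 2 a lower mean and 0 passed. Their summed level was 859.7, 260.4 and 446 FPKM in the knockout-labelled livers and 618, 138 and 538 FPKM in the controls. In both groups replicate 1 had the highest and replicate 2 the lowest sum of macrophage markers, the order that the summed level of the 9 enzymes also had. Of 8 endothelial markers, 6 had a lower and 2 a higher mean and 0 passed, with sums of 235, 124 and 124 FPKM in the knockout-labelled livers and 265, 76.9 and 229 FPKM in the controls. Stellate markers summed to 231, 125 and 97.7 FPKM in the knockout-labelled livers and to 168, 103 and 128 FPKM in the controls, with 3 of 10 lower and 7 higher in the mean. Of 6 cholangiocyte markers 2 were tested, Sox9 and Spp1. Spp1, which made up most of the summed level of the 6, was at 144, 13.5 and 14.03 FPKM in the knockout-labelled livers and at 55.6, 43.2 and 27.1 FPKM in the controls. The 4 that were not tested were low: Krt7 was at 0.410, 0.380 and 0.135 FPKM in the knockout-labelled livers and at 0.567, 1.12 and 0.440 FPKM in the controls, and Epcam was at 0.214, 0.601 and 0.168 FPKM in the knockout-labelled livers and at 0.877, 0.695 and 0.618 FPKM in the controls. Both lay below every control in all 3 knockout-labelled livers, as 5.56% of tested genes did. Krt19 and Cldn7 overlapped between the groups. Krt19 was at 0.339, 0.617 and 0.0532 FPKM in the knockout-labelled livers and at 1.75, 0.937 and 0.519 FPKM in the controls. Cldn7 was at 0.819, 0.167 and 0.158 FPKM in the knockout-labelled livers and at 0.490, 0.329 and 0.427 FPKM in the controls. The part of cell composition in the spread of the 9 enzymes was not tested.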

How the data were processed

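RNA from 6 livers was selected for poly(A), made into strand-preserving libraries and read from 1 end over 75 bases, per the labels' protocols. The tools STAR and DESeq2 and the build mm10 are named per the submitters' processing notes; their roles and versions, the annotation and any use of strand are items not given in the sources used here. Expression values as deposited by the authors are FPKM, a unit read from the values themselves since the table does not name it, and such values fall when a few genes take more of a library. None of the columns was unmapped, no 2 libraries held identical values and 7343 of 24341 genes were 0 throughout.

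Depth was estimated from steps between low FPKM values: 60.3 to 63.5% of them lay within 0.05 of a whole read, where 10% would by chance, and 1 read on 2000 bases was worth 0.0315 to 0.0376 FPKM. Counting errors cover counting only. No count test was made.

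The linear model was fitted in limma 3.58.1 (R 4.3.3) to log2(FPKM + 1) with an intensity trend, both groups and no covariate. The pseudocount of 1 understates changes of low genes. The fit was first tested on simulated data with known changes. Every simulated gene had the same spread, the median over tested genes. The simulation thus does not cover genes as variable as the 9, whose median log2 SD was 0.96 in the controls and 1.71 in the knockout-labelled livers. Replicate numbers were taken as pairing the livers because each same-numbered pair deviated together in these same data (correlations 0.477, 0.279 and 0.283). The fit with that block is 1 of 18 alternatives (pseudocount, filter, scaling, trend, weights and left-out livers). The members and lists were chosen with earlier results of these data known. Genes named are the 9 members, the 4 of highest level in each pathway list, Srebf1, Mlxipl, Mid1ip1 and the 8 nearest in pattern; cell markers are given as lists. Some genes that this rule names are not reported here. Gene positions are from GENCODE M21 (mm10) and promoters from RefSeq (GRCm38.p6).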

Additional observations from a re-analysis of the deposited data

How the results depend on the processing

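Over 18 alternatives the 9 lipogenesis genes gave 162 differences, of which 158 were lower in the knockout-labelled livers, 4 were higher and 3 passed. With sample quality weights 537 genes passed over the whole table, against 3 with equal weights. Of these, 2 were lipogenesis genes, Acss2 (limma adjusted p = 0.0453) and Thrsp (0.0391), with a median difference of -1.78 over the 9. Both were lower, where 2.06% of tested genes passed lower and 2.84% higher. Pseudocounts of 0.1 and 0.5, other filters, median ratio scaling, quantile normalization and no trend left 2 or 3 genes called, 0 of them lipogenesis genes, with a median difference of -1.05 to -1.002. The replicate block gave 3 calls over all genes and ended or added no call among the genes named; with it 1773 genes had an unadjusted p under 0.05, against 1089 without it. When livers were left out, singly or as same-numbered pairs, calls over all genes ranged from 2 to 153 and among the 9 genes from 0 to 1. The highest counts, 153 and 32, both came without knockout replicate 1 (alone or with its control), and 5 genes passed without control replicate 2. The median difference ran from -2.01 to -0.46. Genes whose sign turned ranged from -0.96 to 0.13 (Acacb), -0.65 to 0.21 (Me1), -0.044 to 0.18 (Btd), -0.23 to 0.33 (Fads2), -0.081 to 0.74 (Acsl1), -0.35 to 0.41 (Acss3), -0.036 to 0.86 (Pkm), -0.45 to 0.049 (Nr1d1), -1.37 to 0.030 (Zbp1), -1.31 to 0.36 (G6pdx) and -0.59 to 0.37 (Pgd). The log2 difference in the ratio of Acacb to Acaca ran from 0.077 to 0.57 and in that of Me1 to Fasn from 0.32 to 2.57 when single livers were left out. For Scd1 to Fasn it ran from -0.48 to 0.30 in the same way and was -0.0072 with a pseudocount of 1. With weights the sign also turned for Mpc2 (0.013), Nr1d1 (0.046) and Prkci (-0.022). The cause of these changes was not tested. Read depth limits the 9 genes little; the number of livers and the spread within groups set the width of the intervals.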

Other observations

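Steps after palmitate were mixed. Of 17 tested elongation, desaturation and acyl-CoA synthetase genes, 7 had a lower and 10 a higher mean in the knockout-labelled livers, 0 passed, and the median log2 difference was 0.06, beside -1.02 for the 9 enzymes and 0.04 for all tested genes. Elovl5, an elongase of polyunsaturated fatty acids, was at 361, 560.7 and 504 FPKM in the knockout-labelled livers and at 339, 153 and 199.5 FPKM in the controls. It stood above every control in all 3 livers, as 10.7% of tested genes did, without passing (log2 difference 1.10, SE 0.32, limma adjusted p = 0.390). Fads1, the delta-5 desaturase, was at 238, 129 and 189 FPKM in the knockout-labelled livers and at 363, 225 and 298 FPKM in the controls (limma adjusted p = 0.502). Fads2, the delta-6 desaturase, was at 354, 299 and 426 FPKM in the knockout-labelled livers and at 442, 206 and 394 FPKM in the controls, with no separation. Acsl1, which activates long-chain fatty acids, was at 157, 475 and 494 FPKM in the knockout-labelled livers and at 229, 285 and 369.7 FPKM in the controls.

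Triglyceride assembly was mixed, with 4 of 13 tested genes lower and 9 higher in the mean, 0 passing and a median log2 difference of 0.40. Dgat2, which adds the last acyl chain to triglyceride, was at 232, 148 and 191 FPKM in the knockout-labelled livers and at 334, 321 and 393 FPKM in the controls. All 3 knockout-labelled livers, replicate 1 included, lay below every control, unlike the 9 enzymes (log2 difference -0.89, SE 0.20, limma adjusted p = 0.317). The same held for 5.56% of tested genes. Plin2, which coats lipid droplets, was at 308, 1089 and 736.5 FPKM in the knockout-labelled livers and at 315, 193 and 514 FPKM in the controls, with replicates 2 and 3 of the knockout group above every control (limma adjusted p = 0.596). Apob, the protein of secreted lipoproteins, averaged 524 ± 34.3 FPKM in the knockout-labelled livers and 483 ± 58.2 FPKM in the controls (SD, n = 3 each). Mttp, which loads lipid onto it, averaged 155 ± 30.5 FPKM in the knockout-labelled livers and 118 ± 29.0 FPKM in the controls (SD, n = 3 each).

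Relatives of the 9 enzymes were also read. All 6 that were tested had a higher mean in the knockout-labelled livers, against 56.1% of tested genes. Of these 0 passed, and the median log2 difference was 0.14. Scd2 was at 6.34, 0.639 and 0.938 FPKM in the knockout-labelled livers and at 2.61, 1.34 and 1.43 FPKM in the controls. Its log2 difference of 0.06 thus rested on knockout replicate 1. The signs of Acss3 and Pkm turned when livers were left out. Mcat and Oxsm, of mitochondrial fatty acid synthesis, averaged 17.9 ± 1.67 and 14.6 ± 1.17 FPKM in the knockout-labelled livers and 15.7 ± 1.02 and 12.3 ± 1.54 FPKM in the controls (SD, n = 3 each). Pkm, the pyruvate kinase of muscle and most other cells, was at 23.1, 5.92 and 9.505 FPKM in the knockout-labelled livers and at 12.4, 4.06 and 8.88 FPKM in the controls. Pkm was highest in replicate 1 and lowest in replicate 2 of each group, the order that the macrophage markers also had; what part other cells had in this was not tested. Acss3, a mitochondrial acyl-CoA synthetase, was at 25.4, 14.4 and 28.6 FPKM in the knockout-labelled livers and at 24.7, 10.6 and 32.1 FPKM in the controls.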
